A study of Homo sapiens with 12 samples.

Results

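The early response to a glucocorticoid was measured in CCRF-CEM-C7H2, a glucocorticoid-sensitive line of human T-cell acute lymphoblastic leukemia, by setting 3 arrays of cells given 100 nM dexamethasone for 6 h against 3 arrays of cells given 0.1% ethanol, the carrier, for 6 h. Dexamethasone is a synthetic agonist of the glucocorticoid receptor. The arrays came from independent experiments numbered 0, 1 and 3, each with 1 treated and 1 carrier culture, and were 6 of the 12 arrays of the study. The other 6 held the same treatments at 24 h (experiments 1, 2 and 3) and also entered the fit, where they help set the spread and the filter on low values behind the 6 h calls. All cultures were of this 1 line. The study asked which primary microRNA transcripts respond, so the genes described here are those that lie outside the hosts of microRNAs: 9356 of the 9947 genes that could be tested. A host was a gene whose span in the RefSeq table holds a microRNA gene on either strand.

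The glucocorticoid receptor, the product of NR3C1, waits in the cytoplasm in a complex with heat shock proteins and immunophilins. When bound by hormone it enters the nucleus, binds DNA as a dimer at paired hexamers or tethers to other factors, and raises or lowers transcription of nearby genes. In lymphoid cells this programme is known to oppose inflammatory signalling, to slow growth and to end in apoptosis, which is why glucocorticoids are used against lymphoblastic leukemia. At 6 h direct targets of the receptor and genes reached through their products can both have changed.

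Values are log2 GCRMA expression values per probe set of the HG-U133 Plus 2.0 array, and 41.2 to 41.6% of all probe sets reached a log2 of 4 on each array at 6 h. The line carried T-lineage transcripts: 12 of the 14 T-cell markers on the array were at 4 or more on all 6 arrays, CD3D at mean levels of 14.08 with dexamethasone and 14.05 with ethanol, while CD2 and DNTT were below 4 on all 6. None of 10 myeloid and 2 erythroid markers reached 4 on every array, nor did 6 of 8 B-cell markers, PAX5 among them, whereas CD79A (means of 10.49 with dexamethasone and 10.08 with ethanol), CD79B and 5 of 11 epithelial or stromal markers, EPCAM among them with means of 10.94 in both groups, did. CD79A was 0.41 higher (adjusted p = 0.243, and 0.0097 with the experiment number as a block). The summed levels of each marker list overlapped between the groups (T-cell markers 130.3 to 134.1 with dexamethasone and 131.3 to 133.2 with ethanol). In the labels' array descriptions the 3 dexamethasone arrays carry 1 file code, the 3 ethanol arrays another and the 24 h arrays yet another, so at 6 h file code and treatment cannot be told apart. The poly-A spike controls were higher on the dexamethasone arrays by 0.48 (7.36 to 7.60 against 6.92 to 7.10) and the hybridization controls by 0.34, each with exact permutation p = 0.1, two-sided, the smallest that 3 against 3 arrays allow. The 18S ribosomal RNA probe sets were lower by 2.27 (8.99 to 10.02 against 10.59 to 12.41, exact p = 0.1), whereas they were higher by 0.28 on the 24 h dexamethasone arrays (exact p = 0.3). The part of these controls in the results below was not tested. Fewer cells of a kind and less RNA per cell cannot be told apart in such bulk samples.

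After 6 h of dexamethasone 248 genes were higher (2.65% of those tested) and 355 were lower (3.79%), at an adjusted p under 0.05. The 603 made up 6.45% of the tested genes, and 6.2% of all 23265 tested probe sets passed. The rises were fewer and larger: 79 of them reached 2-fold and 27 reached 4-fold, while 12 of the falls reached 2-fold and none of the 355 reached 4-fold. The median called rise was 0.71 and the median called fall -0.48 on the log2 scale, beside a median of -0.003 over all tested genes, with quartiles of -0.14 and 0.12. In 105 rises and 255 falls the change was under 1.5-fold. All called genes moved the same way in the 3 same-numbered pairs, and the 3 arrays of one group lay apart from the 3 of the other in 247 of the 248 rises and all 355 falls, as they did in 25.3% of all tested genes. The calls were made on the same arrays, so this separation adds no support of its own. With the experiment number as a block, which the paired arrays allow, 550 genes were higher (5.88%) and 707 lower (7.56%), and these held 246 of the 248 rises and 349 of the 355 falls. The list counts below, with and without the block, are to be read beside these all-gene shares. Errors, adjusted p values and left-out-array values below come from the fit without the block unless the block is named. That fit does not use the pairing.

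The balance of rises and falls rested on the scale. When the arrays were scaled to the poly-A spikes, the median over all tested genes moved to -0.48, 97 genes were higher (1.04%) and 6557 lower (70.1%). On the hybridization control scale it moved to -0.34, with 87 genes higher and 615 lower. All directions given here are therefore relative to the bulk of the genes, and the median of every list below was under 0 on the spike scale. Of the 79 rises of 2-fold or more, 78 were still called higher on the spike scale, DUSP6 being the exception, against 92 of all 248. Among the genes named below, CXCR4, LEF1, PIK3R1, TXNIP, DGKA, SLC1A4, ULK1, IRF9, IFI44, ID2, IL6ST, TOB1, ARHGEF3 and ESPL1 kept a positive difference there without passing the test.

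**Figure D1:**
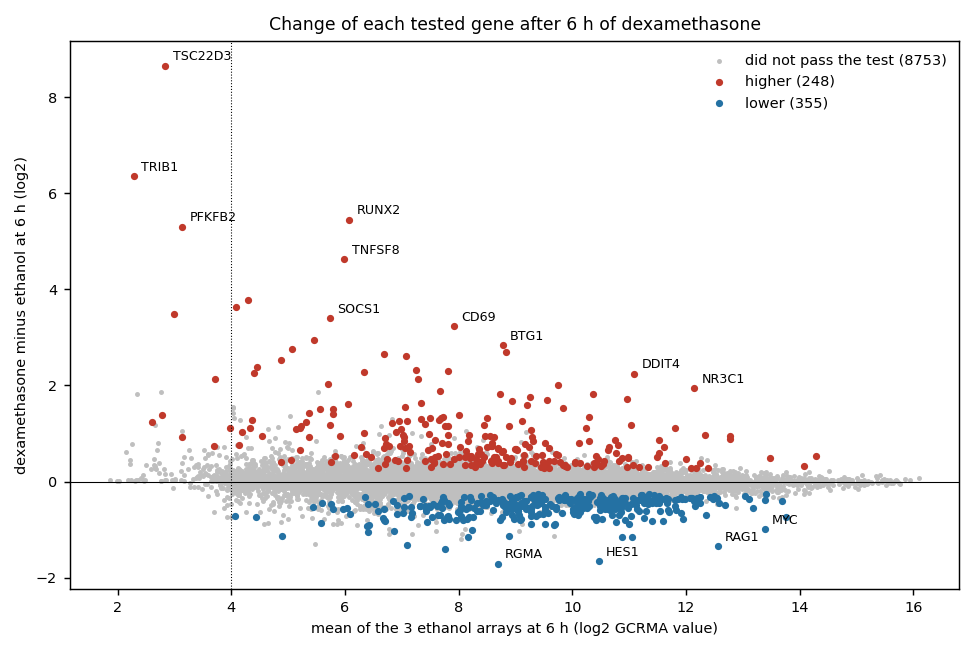
Difference between dexamethasone and ethanol at 6 h (log2) of each of the 9356 tested genes against its mean on the 3 ethanol arrays. Red points are the 248 genes called higher and blue points the 355 called lower, grey points did not pass the test, and the dotted line marks the log2 of 4 below which a value counted as background. The red points reach much farther from 0 than the blue ones, which lie between -0.26 and -1.71.

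TSC22D3 showed the largest change of all tested genes. It encodes GILZ, the glucocorticoid-induced leucine zipper, a mediator of the anti-inflammatory action of the receptor. Its values were 11.39, 11.44 and 11.65 on the dexamethasone arrays of experiments 0, 1 and 3 and 2.97, 2.96 and 2.59 on the ethanol arrays, in the same order here and below. All ethanol arrays were thus at background, taken here as below a log2 of 4, and all dexamethasone arrays far above it, so the rise was at least 7.49 when measured from 4 (adjusted p = 2.17e-10). FKBP5, an immunophilin that dampens the receptor and a standard marker of its activity, stood at 13.67, 13.82 and 13.95 with dexamethasone and 11.01, 11.35 and 11.38 with ethanol, a rise of 2.57 ± 0.12 (standard error, here and below, n = 3 arrays per group; adjusted p = 6.00e-07). FKBP5 spans a microRNA gene and is shown only as a check of the labels. NR3C1 itself, the receptor's gene, stood at 14.17, 13.92 and 14.16 with dexamethasone and 12.19, 12.12 and 12.11 with ethanol and rose by 1.94 ± 0.09 (adjusted p = 5.38e-07), with all 5 of its tested probe sets called higher. All 3 check genes were higher on every dexamethasone array than on any ethanol array, as the labels imply.

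Of the 30 tested genes listed as known receptor targets, 13 rose, 1 fell and 16 did not pass the test, and the median difference was 0.38 (-0.10 on the spike scale, where 10 rose and 7 fell). Of all tested genes 2.65% rose. The list was chosen with earlier results of these data known, so its count is no independent check. Beyond TSC22D3 the rises included DDIT4, an inhibitor of mTOR complex signalling, which went from 10.66, 11.24 and 11.38 with ethanol to 13.07, 13.31 and 13.63 with dexamethasone (2.24 ± 0.18, adjusted p = 4.24e-05). KLF13, a zinc finger factor of lymphocytes, rose by 1.69 ± 0.10, SMAP2, a regulator of vesicle traffic, by 1.69 ± 0.08, and NFKBIA, which holds NF-kB in the cytoplasm, by 1.59 ± 0.09, from 9.20, 9.19 and 9.20 to 10.93, 10.70 and 10.74. Their adjusted p values were 4.24e-05, 6.63e-06, 6.00e-07 and 2.82e-06, in the order named. TNFAIP3, a ubiquitin-editing brake on NF-kB and the member that fell (chosen after its value was seen), stood at 9.55, 9.79 and 9.56 with dexamethasone and 10.08, 10.28 and 10.21 with ethanol (-0.56 ± 0.12, adjusted p = 0.0179; 0.0632 without the dexamethasone array of experiment 3). At 24 h TNFAIP3 differed by 0.07 (adjusted p = 0.658). Of the receptor complex genes 11.1% were called, beside 6.45% of all tested genes. In the receptor complex list, 1 of 18 tested genes rose, NR3C1, and 1 fell, FKBP4, the immunophilin FKBP52 that helps the receptor reach the nucleus (-0.52 ± 0.12, adjusted p = 0.0309; 0.106 without the ethanol array of experiment 3).

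Promoter sequence was read for the called genes because the receptor binds DNA at paired hexamers. RefSeq promoter windows (GRCh38.p14, 250 bases before to 50 after the gene start) matched 7715 of the 9356 genes. The spaced palindrome GNACANNNTGTNC, which reads the same on both strands, was in 14 of these windows (0.1815%): in 3 of 216 risen genes (1.389%) and in 0 of 297 fallen genes, which at this number allows nothing more than a description. The single hexamer TGTTCT, searched on both strands and able to overlap the palindrome, was in 9.216% of all windows, 9.259% of those of risen and 11.11% of those of fallen genes. The 3 risen genes were FOXN3, TXNIP and MAP3K6, and they are shown because they are the called genes that hold the full palindrome, here in capitals. Each line gives bases upstream of the gene start, 5′ to 3′ on the gene's own strand.
FOXN3, chr14:89619347-89619415, minus strand, palindrome 244 bases before the start: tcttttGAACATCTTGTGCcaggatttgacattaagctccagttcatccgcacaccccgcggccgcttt
TXNIP, chr1:145996692-145996804, minus strand, palindrome 175 bases before the start: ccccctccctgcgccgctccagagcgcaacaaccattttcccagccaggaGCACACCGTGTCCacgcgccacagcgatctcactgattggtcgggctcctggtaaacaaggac
MAP3K6, chr1:27367051-27367163, minus strand, palindrome 152 bases before the start: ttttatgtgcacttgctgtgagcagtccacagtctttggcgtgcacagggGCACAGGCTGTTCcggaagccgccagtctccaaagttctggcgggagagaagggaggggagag
All 3 rises were modest. TXNIP, the thioredoxin-interacting protein that limits glucose uptake, stood at 11.42, 11.55 and 11.91 with dexamethasone and 10.57, 10.66 and 11.04 with ethanol (0.87 ± 0.15, adjusted p = 0.00678). MAP3K6, a kinase of the stress-activated MAP kinase cascade, rose by 1.11 ± 0.23 (adjusted p = 0.0164; 0.0607 without the dexamethasone array of experiment 1). FOXN3, a forkhead repressor, rose by 0.44 ± 0.11 (adjusted p = 0.0399; 0.128 without the dexamethasone array of experiment 3), and its difference was -0.04 on the spike scale. None of the 14 matched windows among the 20 largest rises held the palindrome; these windows are short, and nothing follows about receptor binding elsewhere.

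The 20 largest rises held TRIB1 and inhibitors of cytokine and PI3-kinase signalling. TRIB1, a pseudokinase that brings proteins to a ubiquitin ligase, stood at 9.36, 8.46 and 8.09 with dexamethasone and 2.10, 2.08 and 2.68 with ethanol, a rise from background of at least 4.64 (adjusted p = 6.00e-07). SOCS1, which blocks JAK kinases at cytokine receptors, stood at 9.06, 9.34 and 8.99 with dexamethasone and 5.64, 6.11 and 5.45 with ethanol and rose by 3.40 ± 0.20 (adjusted p = 3.43e-06). PIK3IP1, a membrane inhibitor of PI3-kinase, stood at 7.62, 8.26 and 8.29 with dexamethasone and 4.28, 3.99 and 4.59 with ethanol and rose by 3.77 ± 0.32 (adjusted p = 6.01e-05). In each of these 3 the lowest dexamethasone array was above the highest ethanol array by more than 2 log2 units. Over the 29 tested genes of signal feedback, 5 rose and 2 fell (6 and 4 with the block). The other 2 rises were the MAP kinase phosphatases DUSP10 (1.03 ± 0.19) and DUSP6 (1.16 ± 0.30). The call of DUSP6 was lost without the ethanol array of experiment 3 (adjusted p = 0.144). Its differences were 1.08, 1.29 and 1.12 in experiments 0, 1 and 3, and with the block its adjusted p was 0.0013. The falls were DUSP7 (-0.52 ± 0.08), a phosphatase of the same family, and PTPN22 (-0.52 ± 0.11), a phosphatase that restrains antigen receptor signalling (0.0796 without the dexamethasone array of experiment 3).

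In the PI3-kinase, mTOR and FOXO list 5 of 29 tested genes rose (8 rose and 1 fell with the block), and the median was 0.13. Besides PIK3IP1 and DDIT4 these were SESN1, a sestrin that restrains mTOR complex activity (1.17 ± 0.15, adjusted p = 0.001), PIK3R1, the p85 regulatory subunit (0.57 ± 0.10, adjusted p = 0.00608), and TSC1, a subunit of the complex that switches RHEB off. TSC1 stood at 8.40, 8.23 and 8.49 with dexamethasone and 7.94, 7.91 and 7.90 with ethanol (0.46 ± 0.09, adjusted p = 0.0154; 0.0593 without the dexamethasone array of experiment 3), and its sign turned on the spike scale (-0.02). By known function all 5 products are inhibitory or regulatory components of the pathway. The list was chosen with earlier results of these data known, so this is no independent finding, and pathway activity was not measured. On the spike scale 3 of the list rose and 13 fell.

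Transcription factors of the lymphoid lineage moved in both directions: of 37 tested, 5 rose and 7 fell (6 and 11 with the block). RUNX2, a Runt factor best known from bone formation, made the largest rise, from 7.02, 6.64 and 4.55 to 11.997, 11.48 and 11.09 (5.45 ± 0.69, adjusted p = 0.00101), with a wide spread among the ethanol arrays and 3 of its 5 tested probe sets called. BCL6, a repressor of lymphocyte activation genes, rose by 1.11 ± 0.22 (adjusted p = 0.014; 0.0543 without the ethanol array of experiment 0), and ID2, which inhibits E proteins, by 0.70 ± 0.17 (adjusted p = 0.0387; 0.118 without the dexamethasone array of experiment 1). For BCL6 1 of 3 tested probe sets was called, with differences from 0.01 to 1.11. LEF1, a partner of beta-catenin, rose by 0.48 ± 0.07, and IKZF1, the founding Ikaros factor, by 0.48 ± 0.08 (-0.003 on the spike scale). Among the falls, MEF2C, a MADS-box factor active in immature lymphoid leukemia, went from 10.97, 11.09 and 11.08 to 9.75, 10.01 and 9.93 (-1.15 ± 0.12, adjusted p = 0.000211). BCL11B, which commits progenitors to the T lineage, stood at 10.02, 9.94 and 10.37 with dexamethasone and 10.90, 10.88 and 11.20 with ethanol (-0.88 ± 0.15, adjusted p = 0.00562), and SATB1, a chromatin organizer of thymocytes, at 12.97, 13.05 and 13.08 with dexamethasone and 13.76, 13.68 and 13.86 with ethanol (-0.73 ± 0.07, adjusted p = 0.000178). In all 3 of these falls, as in all called falls, every dexamethasone array was below every ethanol array. ARID5B, a DNA-binding cofactor of a histone demethylase, fell by 0.90 ± 0.08 (adjusted p = 0.000106), and with KDM2A, a histone demethylase (-0.41 ± 0.09, adjusted p = 0.0859 without the ethanol array of experiment 3), it made up the called members among 53 tested chromatin genes (3.77%, beside 6.45% of all tested genes). For KDM2A 1 of 3 tested probe sets was called, with differences from -0.41 to -0.06.

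Immediate early genes also split, with 3 of 20 tested risen and 3 fallen (4 and 5 with the block). BTG1, an antiproliferative cofactor of mRNA deadenylation, stood at 11.24, 11.84 and 11.76 with dexamethasone and 8.63, 9.28 and 8.43 with ethanol (2.84 ± 0.22, adjusted p = 2.97e-05). NFIL3, a basic leucine zipper repressor, stood at 9.13, 9.25 and 9.67 with dexamethasone and 6.66, 6.46 and 6.95 with ethanol (2.66 ± 0.16, adjusted p = 5.78e-06), and JUN, a subunit of AP-1, at 11.20, 11.49 and 11.42 with dexamethasone and 9.63, 9.77 and 10.10 with ethanol (1.53 ± 0.13, adjusted p = 6.01e-05). IER3, a stress-responsive regulator of survival signalling, came after RGMA and HES1 among the largest falls, from 7.46, 7.70 and 8.13 to 6.07, 6.43 and 6.57 (-1.41 ± 0.25, adjusted p = 0.00823). JUNB, the JUN relative, fell by 0.51 ± 0.13 (adjusted p = 0.0468; 0.141 without the ethanol array of experiment 0) and IER2 by 0.46 ± 0.12 (adjusted p = 0.0443; 0.138 without the dexamethasone array of experiment 3). With the block the adjusted p was 0.0152 for JUNB and 0.0232 for IER2. JUN and JUNB, both AP-1 subunits, were thus called in opposite directions. NFIL3 was also the called member of the 12 tested clock genes (8.33%, beside 6.45% of all tested genes), where 3 more passed as falls with the block.

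**Figure D2:**
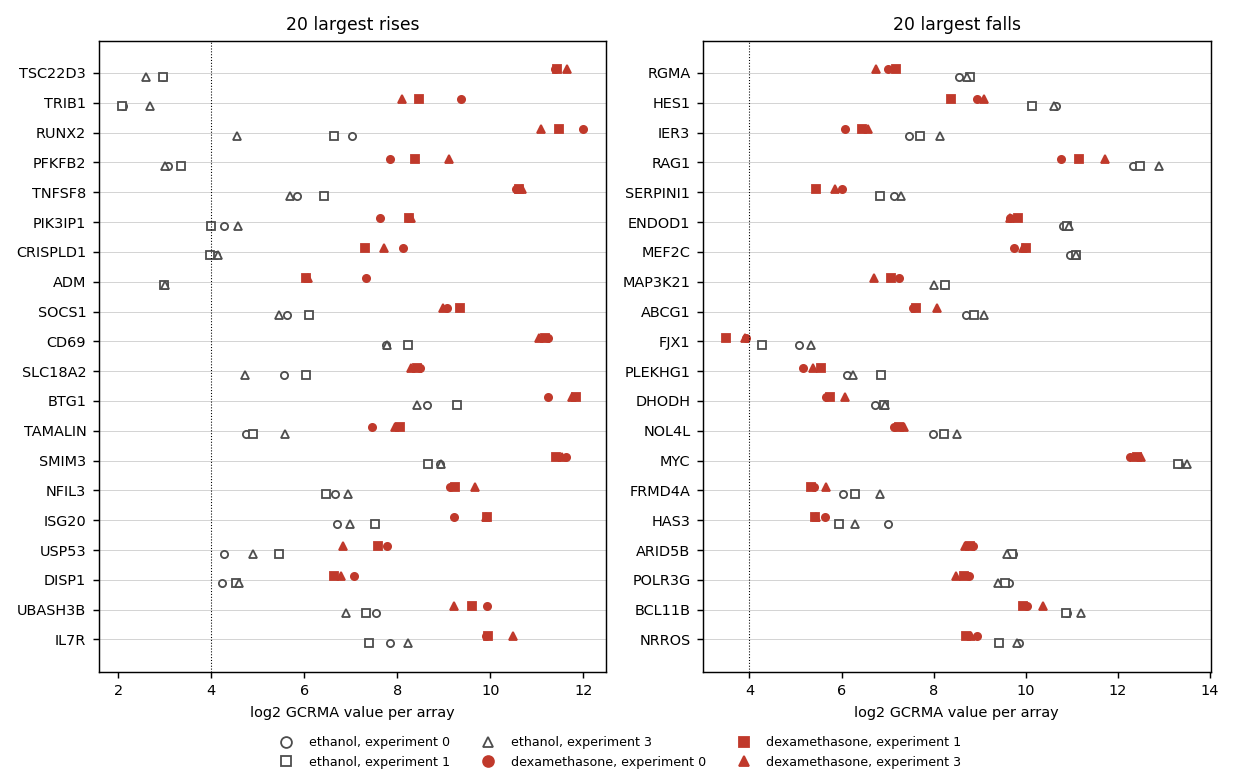
Values on each of the 6 arrays at 6 h (log2 GCRMA) for the 20 largest rises and the 20 largest falls. Open symbols are ethanol and red symbols dexamethasone, the shape gives the experiment (circle 0, square 1, triangle 3), and the dotted line marks the background level of 4. In all 40 genes, chosen from those called on these arrays, the red and open symbols lie apart, and the open symbols of TSC22D3, TRIB1, PFKFB2 and ADM lie left of the dotted line.

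Cytokines, their receptors and adhesion molecules held several large rises. TNFSF8, the CD30 ligand, stood at 10.55, 10.61 and 10.68 with dexamethasone and 5.84, 6.43 and 5.69 with ethanol, a tight rise of 4.62 ± 0.18 (adjusted p = 3.06e-07). IL7R, the receptor chain for interleukin 7, a survival cytokine of lymphocytes, stood at 9.91, 9.94 and 10.49 with dexamethasone and 7.84, 7.39 and 8.23 with ethanol (2.30 ± 0.39, adjusted p = 0.006). TGFBR2, the ligand-binding receptor of TGF-beta, rose by 1.20 ± 0.10 (adjusted p = 4.76e-05). The chemokine receptors CXCR4 and CCR7 moved apart, CXCR4 up by 0.53 ± 0.07 (adjusted p = 0.00136) and CCR7 down by 0.63 ± 0.16 (adjusted p = 0.0466; 0.148 without the ethanol array of experiment 3). With the block the adjusted p of CCR7 was 0.00184. In all, 5 of 39 tested genes of this list rose and 2 fell (8 and 6 with the block), the others being IL6ST (0.61 ± 0.16, adjusted p = 0.138 without the ethanol array of experiment 3) and IFNAR1 (-0.48 ± 0.11, adjusted p = 0.107 without the dexamethasone array of experiment 3), signalling chains for interleukin 6 and type I interferon. For IL6ST 1 of 4 tested probe sets was called, with differences from 0.21 to 0.61. For IFNAR1 it was 1 of 3, with differences from -0.48 to -0.10. CD69, a C-type lectin that holds lymphocytes in tissue, stood at 11.24, 11.16 and 11.04 with dexamethasone and 7.76, 8.23 and 7.77 with ethanol (3.23 ± 0.18, adjusted p = 2.58e-06). It led the adhesion and homing list, in which 4 of 30 tested genes rose and 4 fell (4 and 5 with the block). ITGA6, the integrin alpha 6 chain, rose by 1.72 ± 0.19 and the tetraspanin CD53 by 1.18 ± 0.10, while ITGA4, the integrin alpha 4 chain, fell by 0.39 ± 0.08 (adjusted p = 0.0124; 0.0512 without the ethanol array of experiment 3). For ITGA4 1 of 4 tested probe sets was called, with differences from -0.39 to -0.23. CD47 rose by 0.32 ± 0.08 (adjusted p = 0.0496, and 0.137 without the ethanol array of experiment 1) and turned to -0.16 on the spike scale and -0.02 on the hybridization control scale. Of its 7 tested probe sets 3 were called higher, and the differences ranged from -0.26 to 0.68.

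In the T-cell receptor pathway, 2 of 37 tested genes rose and 2 fell (4 and 3 with the block). The shares called were 10.8% here, 7.32% for calcium and phospholipid genes and 9.3% for small GTPase genes, beside 6.45% of all tested genes. UBASH3B, a phosphatase that shuts off antigen receptor kinases, stood at 9.92, 9.60 and 9.21 with dexamethasone and 7.54, 7.32 and 6.91 with ethanol (2.32 ± 0.19, adjusted p = 4.22e-05), with all 4 tested probe sets called. DGKA, which removes the second messenger diacylglycerol, rose by 0.78 ± 0.14 (adjusted p = 0.0102). RASGRP1, the exchange factor that diacylglycerol activates, went the other way (-0.73 ± 0.14, adjusted p = 0.0111), as did CD1D, the lipid-presenting molecule (-0.68 ± 0.14, adjusted p = 0.0201; 0.0675 without the ethanol array of experiment 0). None of the 12 tested T-cell marker genes passed the test in limma, with 3 at an unadjusted p under 0.05 and 0 called with the block. Among 41 calcium and phospholipid genes, RCAN1, an inhibitor of calcineurin, stood at 12.01, 11.74 and 11.49 with dexamethasone and 9.80, 9.65 and 9.77 with ethanol (2.01 ± 0.12, adjusted p = 4.98e-06), and RCAN1 and DGKA rose while ITPR1 fell (6 rises and 4 falls with the block). Among 43 small GTPase genes the exchange factors ARHGEF3 (0.53 ± 0.10) and ARHGEF7 (0.34 ± 0.08, but -0.14 on the spike scale; 0.104 without the ethanol array of experiment 1) rose, and RASGRP1 and RHOH (-0.34 ± 0.07; 0.0671 without the ethanol array of experiment 3) fell (8 and 2 with the block). For ARHGEF7 2 of 6 tested probe sets were called, with differences from 0.10 to 0.54.

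The largest fall of all genes was that of RGMA, a co-receptor for bone morphogenetic proteins, which stood at 7.02, 7.17 and 6.76 with dexamethasone and 8.55, 8.78 and 8.73 with ethanol (-1.71 ± 0.12, adjusted p = 1.62e-05). HES1, the transcriptional repressor that NOTCH induces, followed with 8.93, 8.38 and 9.10 with dexamethasone and 10.65, 10.13 and 10.61 with ethanol (-1.66 ± 0.23, adjusted p = 0.00208). HES1 and MYC, also a NOTCH target in T-cell leukemia, were the called members of the 14 tested NOTCH genes (1 rise and 2 falls with the block). They were 14.3% of the list, beside 6.45% of all tested genes. Of 8 tested recombination genes 3 fell, and the median of the list was -0.05. RAG1, the catalytic subunit of the recombinase that assembles antigen receptor genes, stood at 10.77, 11.16 and 11.72 with dexamethasone and 12.32, 12.48 and 12.88 with ethanol (-1.34 ± 0.28, adjusted p = 0.019; 0.0731 without the ethanol array of experiment 3). Its partner RAG2 fell by 0.44 ± 0.09 (adjusted p = 0.0174; 0.0624 without the ethanol array of experiment 1) and the joining ligase LIG4 by 0.88 ± 0.10 (adjusted p = 0.000685). The RAG1 level differed between experiments while its difference was -1.55, -1.32 and -1.16 within them, and with the block its adjusted p was 0.00154.

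Other large changes fell outside these lists. ADM, whose product is cut into the vessel-widening peptide adrenomedullin, was at background with ethanol and at 7.33, 6.04 and 6.08 with dexamethasone, at least 2.48 higher (adjusted p = 7.08e-05). SLC18A2, the vesicular monoamine transporter, stood at 8.49, 8.42 and 8.29 with dexamethasone and 5.57, 6.05 and 4.72 with ethanol (2.95 ± 0.31, adjusted p = 0.000276). SMIM3, a small membrane protein, rose by 2.69 ± 0.10 with the smallest standard error of the 20 largest rises (adjusted p = 1.70e-07). CRISPLD1 (3.64 ± 0.24), the scaffold TAMALIN (2.75 ± 0.26), USP53 (2.52 ± 0.31) and DISP1, which releases lipid-anchored hedgehog (2.39 ± 0.19), made up the remainder of the 20 largest rises with PFKFB2 and ISG20, treated below. Among the 20 largest falls were SERPINI1, the protease inhibitor neuroserpin (-1.31 ± 0.23, adjusted p = 0.00776), ENDOD1 (-1.16 ± 0.12), the mixed-lineage kinase MAP3K21 (-1.15 ± 0.14), NOL4L (-0.999 ± 0.19) and NRROS, which anchors latent TGF-beta (-0.88 ± 0.13). In these 5, as in all 355 called falls, each dexamethasone array was below each ethanol array. FRMD4A (-0.91 ± 0.21), the hyaluronan synthase HAS3 (-0.91 ± 0.22) and POLR3G, a subunit of RNA polymerase III (-0.89 ± 0.19), lay apart too but lost the call without some single arrays. The highest adjusted p was 0.0847 for FRMD4A, without the dexamethasone array of experiment 1. It was 0.102 for HAS3 and 0.069 for POLR3G, both without the dexamethasone array of experiment 3. For HAS3 1 of 2 tested probe sets was called, and the other differed by 0.18. For FRMD4A and POLR3G 1 of 3 was called, and for NOL4L 1 of 2. Their differences nearest 0 were -0.20, -0.43 and -0.32, in that order. FJX1 fell to background, by at least 0.90 (adjusted p = 0.038; 0.125 without the ethanol array of experiment 3).

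MYC, the transcription factor that drives growth and ribosome synthesis, stood at 12.25, 12.42 and 12.50 with dexamethasone and 13.33, 13.31 and 13.51 with ethanol, a fall of 0.99 ± 0.10 (adjusted p = 0.000262). The 3 dexamethasone arrays lay close together and, as in all called falls, below all ethanol arrays. Of 23 tested genes of the MYC network 3 fell and 20 did not pass the test (6 fell with the block), and the median was -0.14. The share called was 13.0%, beside 6.45% of all tested genes. The other falls were PPAT, the first enzyme of purine synthesis (-0.58 ± 0.09, adjusted p = 0.00405), and MTHFD2, a mitochondrial folate enzyme (-0.49 ± 0.11, adjusted p = 0.0256; 0.0887 without the dexamethasone array of experiment 3).

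Ribosome biogenesis factors, which transcribe, cut and assemble ribosomal RNA in the nucleolus, were lower in larger numbers than any other list: 27 of 66 tested genes fell (40.91%, against 3.79% of all tested genes) and 39 did not pass the test. Their median was -0.31, and 60 of the 66 differences were below 0, which sets the list against an all-gene median of -0.003. In 58 of the 66 the difference was negative in all 3 experiments, in 1 it was positive in all 3, and in 49 the dexamethasone arrays lay wholly below the ethanol arrays. The groups lay apart, in either direction, in 25.3% of all tested genes. The all-gene share with the same sign in all 3 experiments was not counted. There were 35 falls with the block, where 7.56% of all tested genes fell, and 61 on the spike scale, where 70.1% did. Leaving out 1 array at a time gave between 12 and 31 falls, and 11 genes were called without each array in turn. LYAR, a nucleolar growth regulator, stood at 11.20, 11.11 and 11.17 with dexamethasone and 11.94, 11.95 and 11.96 with ethanol (-0.79 ± 0.08, adjusted p = 0.000262). PNO1, which assembles the small subunit, stood at 10.37, 10.30 and 10.27 with dexamethasone and 11.06, 10.99 and 11.06 with ethanol (-0.72 ± 0.08, adjusted p = 0.000403), and RRP9, a box C/D particle protein, at 6.999, 7.31 and 7.17 with dexamethasone and 7.80, 7.85 and 8.19 with ethanol (-0.79 ± 0.12, adjusted p = 0.00313). In all 3, as in all called falls, every dexamethasone array was below every ethanol array, and the size of the change was below 2-fold. The members outside these examples that fell ranged from -0.79 for POLR1G, a subunit of RNA polymerase I, to -0.29 for RIOK2, a kinase of small-subunit maturation (0.114 without the dexamethasone array of experiment 3).

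**Figure D3:**
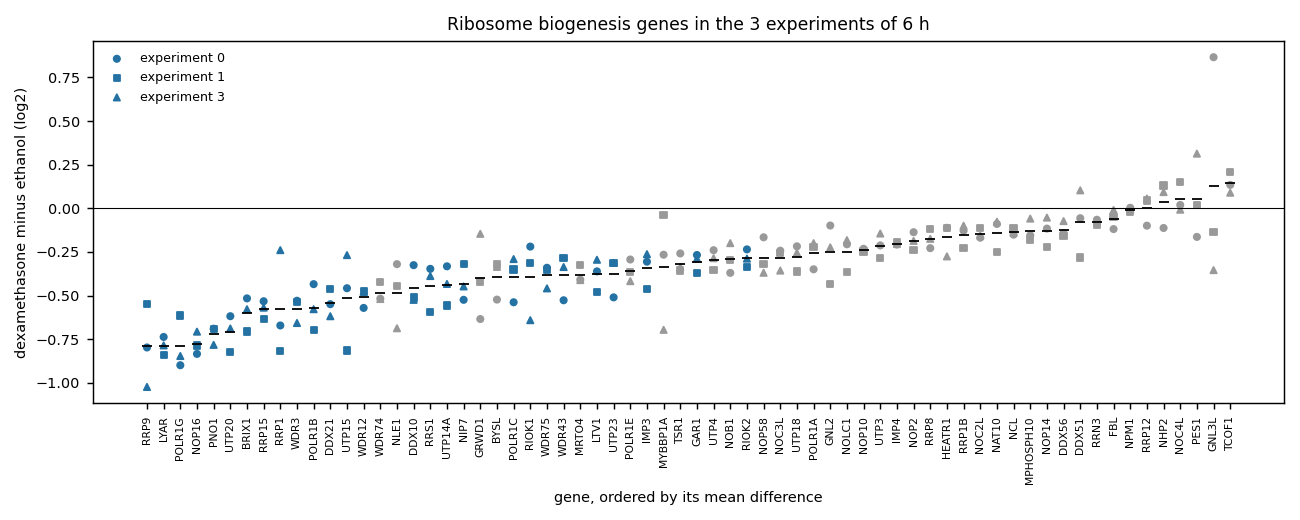
Difference between dexamethasone and ethanol (log2) of the 66 tested ribosome biogenesis genes in each of the 3 experiments of 6 h, ordered by the mean difference (short bars). Blue symbols mark the 27 genes called lower, grey symbols the 39 that did not pass the test. All but 6 of the bars lie below 0, and none of the blue symbols is above it.

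The E-box CACGTG, the hexamer bound by MYC with MAX and by related factors, was counted in the same promoter windows; it reads alike on both strands. It was in 10.97% of all 7715 windows, in 10.19% of those of risen genes and 14.81% of those of fallen genes. Among tested ribosome biogenesis genes 22 of 57 windows held it (38.6%), and among those that fell 7 of 25 (28%). POLR1G, UTP20 and UTP14A are shown because they are the fallen members whose E-box, in capitals, lies wholly before the gene start.
POLR1G, chr19:45406582-45406643, plus strand, E-box 12 bases before the start: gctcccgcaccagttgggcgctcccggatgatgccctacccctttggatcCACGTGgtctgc
UTP20, chr12:101280045-101280104, plus strand, E-box 10 bases before the start: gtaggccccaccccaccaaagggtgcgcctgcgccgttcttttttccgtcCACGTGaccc
UTP14A, chrX:129905914-129905978, plus strand, E-box 241 bases before the start: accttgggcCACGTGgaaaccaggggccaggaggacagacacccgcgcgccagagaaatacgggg
POLR1G stood at 8.04, 8.17 and 8.33 with dexamethasone and 8.94, 8.79 and 9.18 with ethanol (-0.79 ± 0.12, adjusted p = 0.0032). UTP20, a scaffold of the processome that cuts the ribosomal precursor, fell by 0.71 ± 0.18 (adjusted p = 0.0433; 0.141 without the ethanol array of experiment 3), and UTP14A, of the same processome, by 0.44 ± 0.10 (adjusted p = 0.0251; 0.0855 without the ethanol array of experiment 0). In RRP9, PNO1, WDR43 and LTV1, the other fallen members with the hexamer, it lies across or after the start. A match of letters is a description and no site of binding.

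In nucleotide and one-carbon metabolism 5 of 35 tested genes fell and 1 rose. The shares called were 17.1% here, 8.33% for translation and 9.38% for heat shock genes, beside 6.45% of all tested genes. DHODH, which makes orotate for pyrimidine synthesis, fell the most, from 6.73, 6.92 and 6.94 to 5.67, 5.75 and 6.07 (-1.03 ± 0.13, adjusted p = 0.000772), followed by PPAT, the mitochondrial folate carrier SLC25A32 (-0.57 ± 0.09, adjusted p = 0.00541), MTHFD2 and PNP, which salvages purines (-0.46 ± 0.09, adjusted p = 0.0141; 0.0548 without the dexamethasone array of experiment 3). AK3, a mitochondrial nucleotide kinase, was the 1 that rose (0.38 ± 0.08; 0.0746 without the ethanol array of experiment 3), and it turned to -0.10 on the spike scale. Of 36 tested translation genes 3 fell (9 with the block): FARSA, of phenylalanyl-tRNA synthetase (-0.55 ± 0.12, adjusted p = 0.077 without the ethanol array of experiment 3), EIF2B3 (-0.45 ± 0.11, adjusted p = 0.114 without the ethanol array of experiment 1) and EIF5A (-0.36 ± 0.09, adjusted p = 0.107 without the ethanol array of experiment 1). For EIF5A 1 of 3 tested probe sets was called, and the highest difference among them was 0.06. Of 32 heat shock and co-chaperone genes 3 fell (3 rises and 8 falls with the block), all co-chaperones, namely DNAJC6 (-0.50 ± 0.11; 0.085 without the ethanol array of experiment 3), DNAJC2 (-0.44 ± 0.09; 0.0624 without the dexamethasone array of experiment 3) and BAG2 (-0.41 ± 0.10; 0.137 without the ethanol array of experiment 3).

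The shares called were 10.5% for glucose, 9.09% for lipid and sterol and 6.45% for amino acid and polyamine genes, beside 6.45% of all tested genes. In glucose metabolism the change was concentrated in 1 gene. PFKFB2, an isozyme that makes the glycolytic activator fructose 2,6-bisphosphate, stood at 7.84, 8.38 and 9.12 with dexamethasone and 3.06, 3.34 and 3.01 with ethanol, a rise from background of at least 4.45 (adjusted p = 7.89e-07). Of its 3 tested probe sets 2 were called higher, and the lowest difference among them was 0.67. TXNIP and UGP2, which makes UDP-glucose (0.38 ± 0.08, -0.10 on the spike scale; 0.0776 without the ethanol array of experiment 3), also rose, and HK2, the inducible hexokinase, fell from 9.08, 9.19 and 8.93 to 8.35, 8.38 and 8.35 (-0.70 ± 0.16, adjusted p = 0.0299; 0.0913 without the ethanol array of experiment 1). That made 3 rises and 1 fall among 38 tested genes (5 and 4 with the block). For HK2 1 of 3 tested probe sets was called, with differences from -0.70 to -0.26. Among 33 lipid and sterol genes ABCG1, which exports cholesterol, fell (-1.14 ± 0.20, adjusted p = 0.00784), as did STARD4, a sterol carrier (-0.46 ± 0.12; 0.142 without the dexamethasone array of experiment 3), while PLIN2, a lipid droplet coat protein, rose (0.42 ± 0.11; 0.14 without the ethanol array of experiment 3) and turned to -0.06 on the spike scale. With the block 3 of them rose and 5 fell. Of 31 amino acid and polyamine genes 2 rose, the neutral amino acid transporters SLC1A4 (0.77 ± 0.11, adjusted p = 0.00209) and SLC38A2 (0.29 ± 0.06; 0.0831 without the ethanol array of experiment 0), and SLC38A2 turned to -0.19 on the spike scale and -0.05 on the hybridization control scale; with the block 2 fell as well.

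Of 37 tested cell death genes 2 were called (5.41%, beside 6.45% of all tested genes), and BCL2L11 was the one that rose. It encodes BIM, a BH3-only protein that neutralizes BCL2 relatives and is known to mediate glucocorticoid-induced death of lymphoid cells. It stood at 10.78, 10.33 and 10.52 with dexamethasone and 8.64, 8.66 and 8.86 with ethanol (1.82 ± 0.12, adjusted p = 1.03e-05), and all 6 of its tested probe sets were called higher. PMAIP1, the BH3-only protein NOXA, fell from 11.80, 11.93 and 11.99 to 11.09, 11.31 and 11.37 (-0.65 ± 0.11, adjusted p = 0.00557). These were the called members of the list (3 rises and 2 falls with the block), so the BH3-only genes called in this list moved in opposite directions.

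Of the interferon-stimulated genes 11.1% and of the autophagy and lysosome genes 6.82% were called, all as rises, beside 6.45% of all tested genes. ISG20, an exonuclease, stood at 9.21, 9.93 and 9.90 with dexamethasone and 6.69, 7.51 and 6.99 with ethanol (2.61 ± 0.22, adjusted p = 6.21e-05) and RSAD2, the antiviral enzyme viperin, at 7.64, 7.51 and 7.85 with dexamethasone and 6.27, 5.62 and 6.28 with ethanol (1.61 ± 0.17, adjusted p = 0.000276). With IRF9 (0.92 ± 0.21; 0.0933 without the dexamethasone array of experiment 3) and IFI44 (0.74 ± 0.19; 0.13 without the dexamethasone array of experiment 3) they were the 4 risen members of 36 tested genes (7 risen and 1 fallen with the block). Of 44 autophagy and lysosome genes 3 rose (10 risen and 1 fallen with the block), with a median of 0.14: ATG9A, a lipid scramblase of early autophagosomes (1.09 ± 0.17, adjusted p = 0.0037), ULK1, the kinase that starts autophagy (0.94 ± 0.24; 0.138 without the dexamethasone array of experiment 3), and PSAP, the precursor of the saposins (0.27 ± 0.07; 0.129 without the dexamethasone array of experiment 3), which turned to -0.20 on the spike scale and -0.07 on the hybridization control scale. Of 30 genes of the stress response of the endoplasmic reticulum DDIT4 rose and MANF fell (-0.32 ± 0.08; 0.114 without the dexamethasone array of experiment 1), and 4 rose and 2 fell with the block. Of 16 NF-kB genes NFKBIA rose and TNFAIP3 fell, with 1 rise and 3 falls with the block. The shares called were 6.67% for the stress response list and 12.5% for the NF-kB list.

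The cell cycle lists of replication, mitosis and G1 control had 0, 2.17% and 7.69% of their tested genes called at 6 h, beside 6.45% of all tested genes. Of 42 tested replication genes limma called 0, with 4 at an unadjusted p under 0.05 (1 rise and 2 falls with the block). Of 46 mitosis genes ESPL1, the separase, was called (0.53 ± 0.11, adjusted p = 0.0214; 0.0766 without the ethanol array of experiment 3), and 7 rose with the block. Of 26 genes of G1 control BTG1 and its relative TOB1 rose (0.59 ± 0.12 for TOB1; 0.0707 without the dexamethasone array of experiment 3), and 4 rose and 4 fell with the block. Of 35 respiratory chain genes 0 were called, with 1 at an unadjusted p under 0.05 and 0 called with the block. Of 12 housekeeping genes 0 were called, with 1 at an unadjusted p under 0.05 and 1 called with the block. The respiratory chain differences all lay between -0.18 and 0.13.

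**Figure D4:**
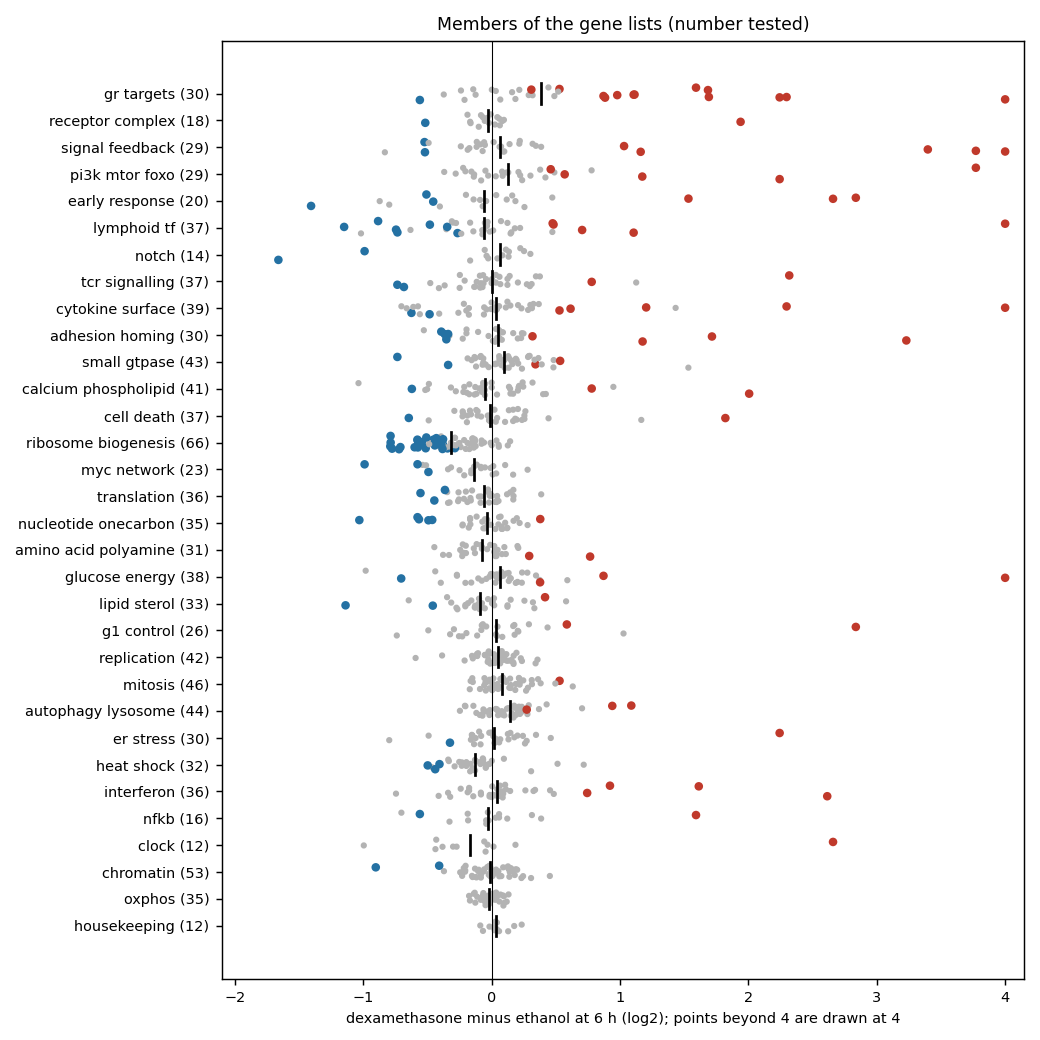
Difference between dexamethasone and ethanol at 6 h (log2) of the tested members of each list with 10 or more tested genes, cell type marker lists left out. The lists were chosen with earlier results of these data known. Points are genes, red where called higher, blue where called lower and grey otherwise, black bars are list medians, and points beyond 4 are drawn at 4. The receptor targets lie to the right with a median of 0.38, ribosome biogenesis to the left with -0.31, and the respiratory chain genes sit in a narrow band at 0.

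The 6 h differences use none of the 24 h arrays, which carry 1 file code for both treatments, but the spread and the filter behind the 6 h calls were estimated with them (202 genes were called with only the 6 h arrays in the fit). On the 24 h arrays 216 of the 248 rises (87.1%) were called higher again and 296 of the 355 falls (83.4%) were called lower again, where 23.7% of all tested genes were called higher and 28.1% lower. Experiments 1 and 3 appear at both times and may share cultures. Of the rises of 2-fold or more 78 of 79 recurred (98.73%), of those from 1.5-fold to 2-fold 60 of 64 (93.75%) and of those under 1.5-fold 78 of 105 (74.29%). For falls it was 11 of 12 (91.67%), 83 of 88 (94.32%) and 202 of 255 (79.22%). The exceptions of 2-fold or more were ATG9A, at 0.43 at 24 h (adjusted p = 0.0592), and SERPINI1, at 0.05 (adjusted p = 0.884). The change was larger at 24 h than at 6 h in 198 of the 248 rises and 252 of the 355 falls, and the median of the rises was 1.23 and that of the falls -0.78 there. HES1 was under 4 on all dexamethasone arrays at 24 h and so at least 6.14 lower, measured against 4. MYC stood at -2.72 and BCL6 at 5.32, and all 3 differences were farther from 0 than at 6 h. Of the 66 ribosome biogenesis genes 65 were called lower at 24 h, with a median of -1.24.

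A small number of genes reversed. Of the 248 rises 5 were called lower at 24 h, namely ADAM15, ATP13A1, C9orf78, ENKD1 and USP5 (named after their values were seen), all under 2-fold at 6 h. Except for C9orf78, each of these 5 lost its 6 h call without 1 of the arrays (highest adjusted p between 0.0631 and 0.146) and turned negative on the spike scale. Of the 355 falls 8 were called higher at 24 h. They included ITPR1, the inositol trisphosphate receptor of the calcium store, which stood at 6.69, 6.82 and 6.89 with dexamethasone and 7.27, 7.55 and 7.45 with ethanol at 6 h (-0.62 ± 0.09, adjusted p = 0.00235) and differed by 1.31 at 24 h (adjusted p = 9.46e-07). Of its 4 tested probe sets 1 was called lower at 6 h, and the highest difference among them was 0.004. RRAS2, a RAS relative, and TRIM36, a ubiquitin ligase, both named after their values were seen, differed by -0.41 at 6 h (0.123 without the dexamethasone array of experiment 3) and 1.23 at 24 h and by -0.46 (0.102 without the ethanol array of experiment 3) and 0.83. Whether the change differed between the times was not tested.

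**Figure D5:**
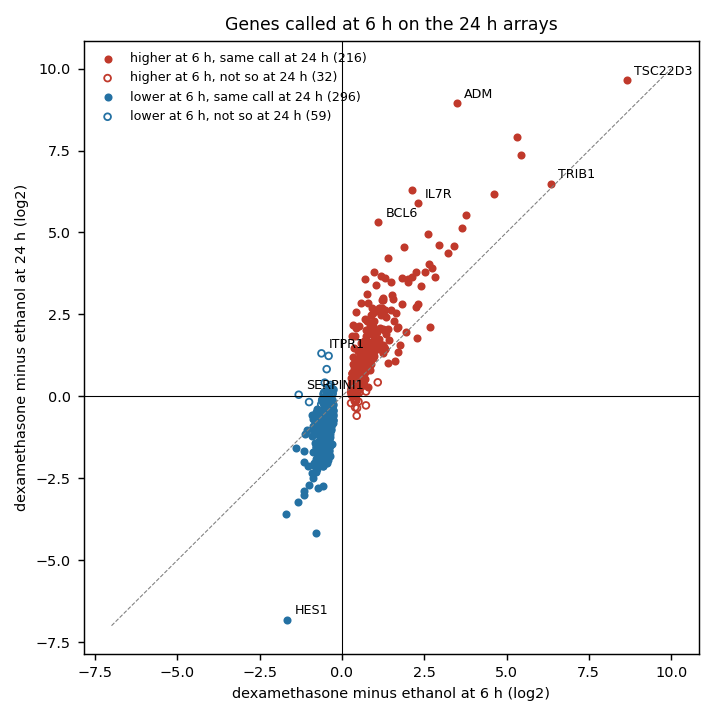
Difference between dexamethasone and ethanol at 24 h against that at 6 h (log2) for the 603 genes called at 6 h, in red those higher and in blue those lower at 6 h. Filled points were called in the same direction at 24 h (216 and 296), open points were not (32 and 59), and the dashed line marks equal differences. For genes at background in a group, such as TSC22D3, TRIB1 and ADM with ethanol and HES1 with dexamethasone at 24 h, the measured differences are plotted, which are no bounds. Most points lie farther from 0 at 24 h than at 6 h.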

How the data were processed

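Total RNA of 12 cultures was hybridized to Affymetrix HG-U133 Plus 2.0 arrays. The authors deposited log2 expression values per probe set, which the submitters' processing notes trace to GCRMA run in R 2.6 (settings: not given in the sources used here). From these values, limma 3.58.1 in R 4.3.3 fitted group means to all 12 arrays (8 residual degrees of freedom) to the 23265 of 54675 probe sets that reached a log2 of 4 in 3 or more arrays. P values were Benjamini-Hochberg adjusted over these, and 0.05 was the threshold. They measure the spread among independent experiments of 1 line; 3 arrays a group limit the precision. Each gene was read from whichever of its tested probe sets had the highest overall mean, and 41091 probe sets had 1 symbol, 1801 several and 11721 none, with 62 controls. No called gene had another probe set called the other way, though some other probe sets did not pass. Such splits are given for some genes and not for all. Errors are limma's standard errors. A gene under 4 throughout a group counted as background there, and changes from it are bounds against 4.

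Experiment numbers paired the arrays: after group means were removed, same-numbered arrays correlated at 0.417, 0.627 and 0.609 at 6 h. All other pairs correlated negatively, which removing the means of 3 arrays largely forces once the same-numbered pairs are positive. The block is therefore given where it changed a named call or moved a count by over 1.5 times, and beside some other counts. Named genes were the 20 largest rises and falls with the same direction in 3 pairs, TSC22D3, FKBP5 and NR3C1, the 3 members with the smallest p of each of 38 lists, and members behind counts of 5 or fewer; some are not given. Genes outside the rule are marked where named, except those named for a promoter motif or as range ends. The genes and lists were chosen with earlier results of these data known. Filters, scalings, fits and single left-out arrays were varied. The code was tested on simulated data.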

Additional observations from a re-analysis of the deposited data

Results flagged for a closer look

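RRAS2 and TRIM36 were named outside the rule and are left out here. Of the falls named by rule, 4 were lower in every experiment at 6 h and higher in every experiment at 24 h. They were ITGB1, the integrin beta 1 chain (-0.37 at 6 h and 0.18 at 24 h), ITPR1, the inositol trisphosphate receptor (-0.62 and 1.31), PTPN22, a phosphatase of antigen receptor signalling (-0.52 and 0.42), and RHOH, a GTPase of hematopoietic cells (-0.34 and 0.20). By limma's adjusted p, ITGB1 did not pass at 24 h (adjusted p = 0.135), while the other 3 passed at both times. For ITPR1 1 of 4 tested probe sets was called at 6 h, and the highest difference among them was 0.004. For PTPN22 it was 2 of 3, for RHOH 1 of 2 and for ITGB1 3 of 3. At 6 h ITGB1, PTPN22 and RHOH each lost the call without some single arrays. The highest adjusted p was 0.129 for ITGB1, without the ethanol array of experiment 0, 0.0796 for PTPN22, without the dexamethasone array of experiment 3, and 0.0671 for RHOH, without the ethanol array of experiment 3. The difference between the times was not tested.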

How the results depend on the processing

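With the experiment number as a replicate block 1257 genes (550 higher, 707 lower), 3039 probe sets instead of 1443, and 1020 instead of 512 genes called the same way at both times passed, and 595 of the 603 changed genes were among them. It ended no call of a named gene. On the poly-A spike scale 6654 genes (97 higher, 6557 lower), 15823 probe sets and 4035 genes at both times passed. On the hybridization control scale 87 were higher and 615 lower. Both controls were higher on the dexamethasone arrays, which sets that shift by construction. With only the 6 h arrays in the fit 202 genes (108 higher, 94 lower) and 490 probe sets passed; the same fit with the block, chosen after seeing the data, gave 619 genes, 407 of them shared. At an adjusted p under 0.01 there were 240 genes (129 higher, 111 lower), 555 probe sets and 221 genes at both times. Leaving out 1 of the 12 arrays gave 344 to 584 genes, 152 to 255 higher, 180 to 355 lower, 848 to 1385 probe sets and 310 to 502 genes at both times. The totals fell by over 1.5 times without the dexamethasone array of experiment 1 (381 genes) or 3 (369) and without the ethanol array of experiment 0 (365) or 3 (344); fewer arrays were fitted there, and other causes were not tested. Cyclic loess, median centring, a trended and robust variance, no filter, a filter at 6, the mean of a gene's probe sets and keeping the hosts in left these counts within 1.5 times. Signs turned on the spike scale for ACTB (-0.35), AK3 (-0.10), ARHGEF7 (-0.14), CD47 (-0.16), EBF1 (-0.47), IKZF1 (-0.0029), PLIN2 (-0.062), PSAP (-0.20), SLC38A2 (-0.19), TSC1 (-0.018), UGP2 (-0.10) and VIM (-0.39), and on the hybridization control scale for CD47 (-0.020), PSAP (-0.065) and SLC38A2 (-0.046).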
